A study of Mus musculus with 40 samples.

Results

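Osteoclasts and multinucleated giant cells form when cells of the macrophage lineage fuse, acidify a sealed space and release enzymes that digest matrix. The genes described here are 9 protein-coding genes of that programme and of tissue remodelling, out of 21194 protein-coding genes measured (54513 rows in all): Ocstamp, Dcstamp, Adamdec1, Ecm1, Acp5, Ctsk, Atp6v0d2, Mmp12 and Mmp14. They were picked by name, and Adamdec1, Ecm1 and Ocstamp had already been seen to be lower after combined treatment, so the comparisons that hold the combination group are given for the 9 genes as a description, with no p-value, and nothing is read from how many of them passed the threshold there. RNA was sequenced from CD11b+ cells, that is microglia and the monocytes, macrophages and granulocytes that enter the brain, sorted by flow cytometry from glioma-bearing or naive hemispheres of male mice 10 to 12 weeks old.

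The groups came from 3 experiments. In the first, C57BL/6 mice carried GL261 mouse glioma cells (tdTomato+ and luciferase+) and were taken at day 21 after receiving water (vehicle), 7aaRGD or 7aaRAE into the tumor from an osmotic pump. 7aaRGD is a peptide that blocks binding of SPP1 to integrins, 7aaRAE is its control peptide with the RGD motif exchanged for RAE, and both were loaded at 2 mg/ml. Each of these groups, and a group of naive mice without tumor, had 3 samples pooled from 2 animals. The second experiment was taken at day 28 from single animals, with 4 vehicle, 4 7aaRGD, 3 anti-PD-1 and 3 combination (7aaRGD and anti-PD-1) samples. Anti-PD-1, an antibody against a T cell checkpoint receptor, was injected at 10 mg/kg on 4 days and the other groups received IgG. The sample titles of the day 28 experiment name nude mice, whereas the methods of the study describe GL261 in C57BL/6J mice. The paper calls the mice of the anti-PD-1 experiment immunocompetent. Its discussion says that immunodeficient mice did not allow a test of checkpoint inhibitors with 7aaRGD. By the paper, then, the day 28 mice were C57BL/6, against their titles. In the third experiment, Athymic Nude-Foxn1nu mice, which lack mature T cells, bore the human glioma line U87-MG RFP+ and were given vehicle, 7aaRGD or 7aaRAE until day 21, with 3 samples of 2 pooled animals in each group. One anti-PD-1 sample, 1 combination sample and the naive nude mice were not analysed here.

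In osteoclast formation, RANK (Tnfrsf11a) and the CSF1 receptor signal through AP-1, PU.1, MITF and NFATc1, and these factors turn on the fusion receptors Dcstamp and Ocstamp, the proton pump subunit Atp6v0d2 and the enzymes Acp5 and Ctsk. Several of these genes are also used by macrophages in tumors and in inflamed tissue, and the label "osteoclast-like" was therefore checked against other genes of the lineage. Tnfrsf11a was measured at 7.49 to 32.1 RPKM and Nfatc1 at 15.8 to 38.0 RPKM over all samples. Oscar, a co-stimulatory receptor of osteoclasts, stayed at or under 0.0509 RPKM in every sample. Siglec15, another osteoclast receptor, was at 0 in all day 28 samples and reached 1.65 RPKM at most in the U87-MG samples. The 9 genes are therefore named here by their known roles and not as markers of osteoclasts.

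The values are RPKM, reads scaled to exon length and to mapped reads, and read depth is unknown. Some fell below 0 once an added constant of 2 was removed, which plain RPKM cannot do. They had thus been changed further in a way that is not known here, and levels close to 0 are uncertain. Levels are compared within an experiment only, since the 3 tables were normalized separately. Itgam, which encodes CD11b, was at 51.2 to 195 RPKM. Differences are log2 fold changes of RPKM + 1 with their standard error (SE) from limma, adjusted over all genes tested, and a gene was called at an adjusted p under 0.05. In 2 of the 3 tables (GL261 at day 21 and day 28) the replicate differences lack 1 dimension, so p-values there rest on 1 independent difference less than the sample number gives. In bulk RNA, fewer cells of a type and less RNA per cell cannot be told apart.

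Gliomas were compared with naive brain to ask which genes tumor-associated CD11b+ cells express. With GL261 at day 21, 8 of 8 members tested were called higher, where 34.6% of all genes tested were called higher and 48.3% lower. Of these 8, 7 (all but Mmp14) had naive means under 1 RPKM and passed the filter on low values only through the vehicle group, so they could hardly have been called lower and nothing is read from the count. Acp5, tartrate-resistant acid phosphatase, was 0.330, 0.505 and 0.335 RPKM in naive samples and 194, 173 and 131 RPKM in vehicle samples, a difference of 6.89 (SE 0.14, adjusted p = 7.85e-09). Ecm1, a secreted extracellular matrix protein, was 0.772, 0.837 and 0.893 RPKM in naive samples and 171, 103 and 129.8 RPKM in vehicle samples, a difference of 6.18 (SE 0.16, adjusted p = 2.09e-08). Both genes were under 1 RPKM in naive cells, and their vehicle means exceeded those of 98.7% (Acp5) and 98.4% (Ecm1) of protein-coding genes. Mmp14, a membrane-anchored collagenase that also activates MMP2, was already present in naive cells at 8.96 to 11.1 RPKM and was 141 to 160.5 RPKM in vehicle samples, a difference of 3.78 (SE 0.08, adjusted p = 1.18e-08). The other 5 tested members were at most 0.308 RPKM in every naive sample. Their differences were 4.12 for Ctsk, 3.94 for Ocstamp, 2.70 for Adamdec1, 2.05 for Mmp12 and 1.98 for Atp6v0d2 (limma, adjusted p from 5.94e-07 to 0.0121). In each of the 8 genes the lowest vehicle sample lay above the highest naive sample, where the groups did not overlap in 85.4% of genes tested. Dcstamp was under the limit of a mean of 1 RPKM and was not tested, with 0.0355 to 0.0465 RPKM in naive and 0.619 to 0.894 RPKM in vehicle samples.

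The cell mixture moved with this comparison. Summed RPKM of 8 microglia markers was 15638 to 16190.3 in naive and 1294 to 1882 in vehicle samples, and all 8 fell. The sum of 8 markers of monocyte-derived macrophages was 63.9 to 66.7 in naive and 3221 to 3966 in vehicle samples, and all 8 rose. The part of this mixture in the rise of the members was not tested. The median difference over all genes was -0.144, and median-of-ratios scaling moved it to 0.000997. The genes called then split into 3901 higher and 3872 lower instead of 3322 and 4635. All 8 members stayed called higher, but their differences, the least being 1.98, were far above that shift, so nothing is read from this.

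**Figure D1:**
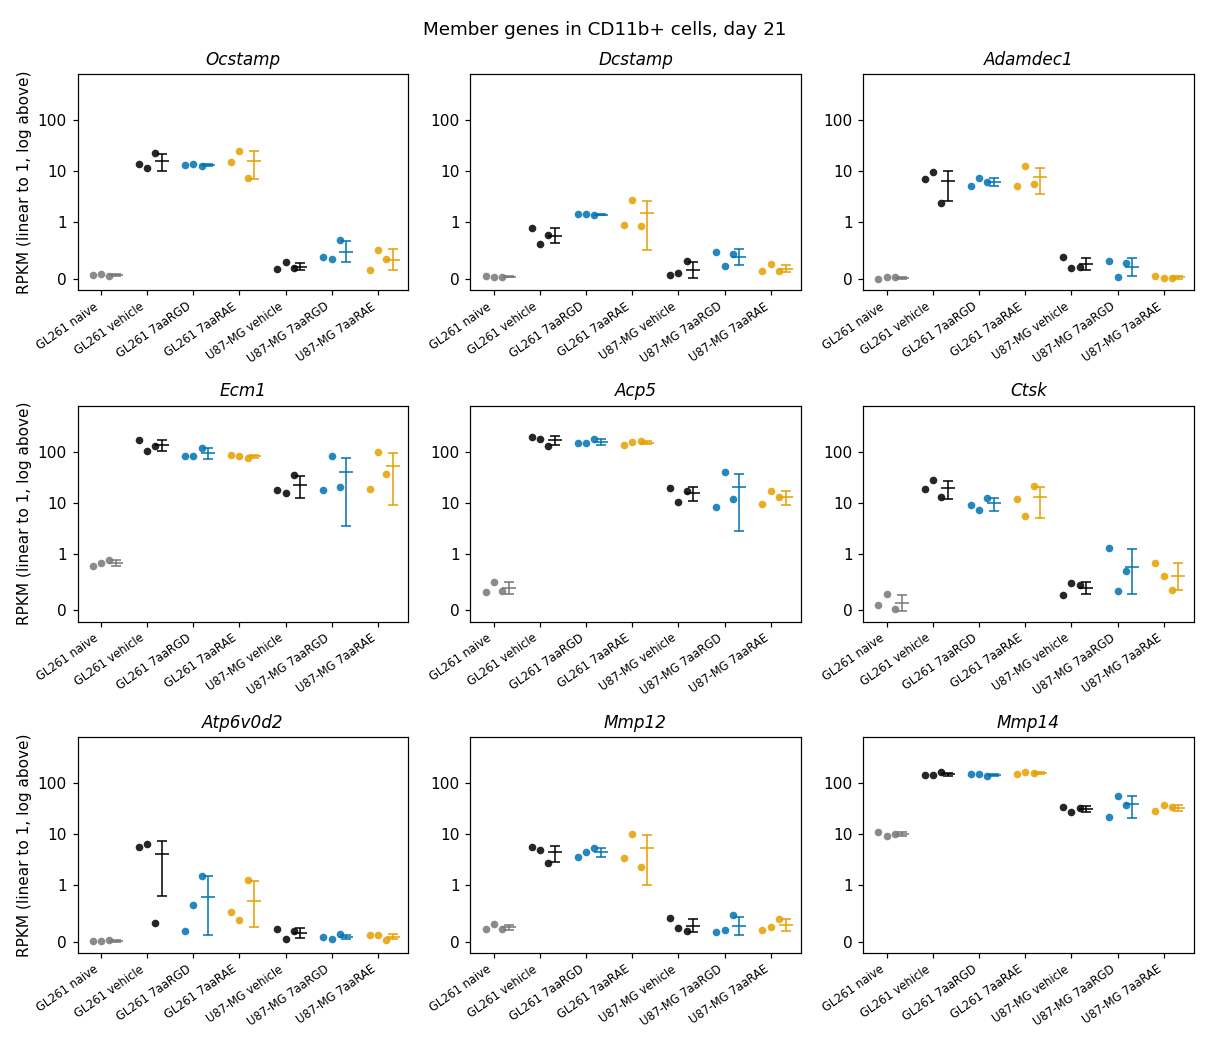
RPKM of the 9 genes in each day 21 sample (points) with the group mean and SD (bar beside the points), on an axis that is linear up to 1 RPKM and logarithmic above. All GL261 vehicle samples lie above all naive samples, and in U87-MG Ecm1, Acp5 and Mmp14 exceed 8 RPKM in all samples while the other 6 genes stay at or below 1.27 RPKM.

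Ocstamp and Dcstamp encode related membrane proteins with several transmembrane segments that are needed for the fusion of osteoclast precursors. At day 28, Ocstamp was 43.6, 43.8, 47.7 and 52.1 RPKM in vehicle samples and 31.3, 53.6, 15.9 and 29.998 RPKM in 7aaRGD samples. It was 13.007, 19.5 and 10.98 RPKM with anti-PD-1 and 5.15, 10.1 and 5.14 RPKM with the combination. Every anti-PD-1 sample was below every vehicle sample and every combination sample below every anti-PD-1 sample, while the 7aaRGD samples overlapped with vehicle. The difference between anti-PD-1 and vehicle was -1.66 (SE 0.32, limma adjusted p = 0.00292), and Ocstamp stayed called when any of the 7 samples was left out (adjusted p from 0.00566 to 0.0132). The same vehicle samples had served the choice of Ocstamp, so these p-values are not independent of that choice. With 7aaRGD alone the difference from vehicle did not pass the test (-0.62, SE 0.29, adjusted p = 0.352). As a description, the combination differed from vehicle by -2.67 (SE 0.32), from anti-PD-1 by -1.01 (SE 0.34) and from 7aaRGD by -2.05 (SE 0.32).

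Dcstamp was far lower than Ocstamp at day 28 and was highest in the group where Ocstamp was lowest. It was 0.166, 0.148, 0.297 and 0.868 RPKM with vehicle and 0.596, 0.104, 0.247 and 0.141 RPKM with 7aaRGD. It was 0.647, 1.35 and 0.411 RPKM with anti-PD-1 and 2.89, 2.24 and 1.88 RPKM with the combination. All combination samples were above all samples of the other groups. Dcstamp was left out of the test by its low mean. Fitted with no filter on low values, it differed from vehicle by 0.39 with anti-PD-1 (SE 0.21, limma adjusted p = 0.249). As a description, it differed by 1.30 (SE 0.21) with the combination.

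At day 21 in GL261, Ocstamp was 13.6, 11.6 and 22.8 RPKM with vehicle, 13.5, 14.05 and 12.7 RPKM with 7aaRGD and 15.4, 25.5 and 7.33 RPKM with 7aaRAE, and the groups overlapped. Dcstamp was 0.894, 0.619 and 0.783 RPKM with vehicle, 1.46, 1.42 and 1.36 RPKM with 7aaRGD and 0.947, 2.72 and 0.934 RPKM with 7aaRAE. Both peptide groups lay above vehicle for Dcstamp without overlap, but neither difference passed the test (7aaRGD 0.45, SE 0.21, adjusted p = 0.389, 7aaRAE 0.45, SE 0.21, adjusted p = 0.713).

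**Figure D2:**
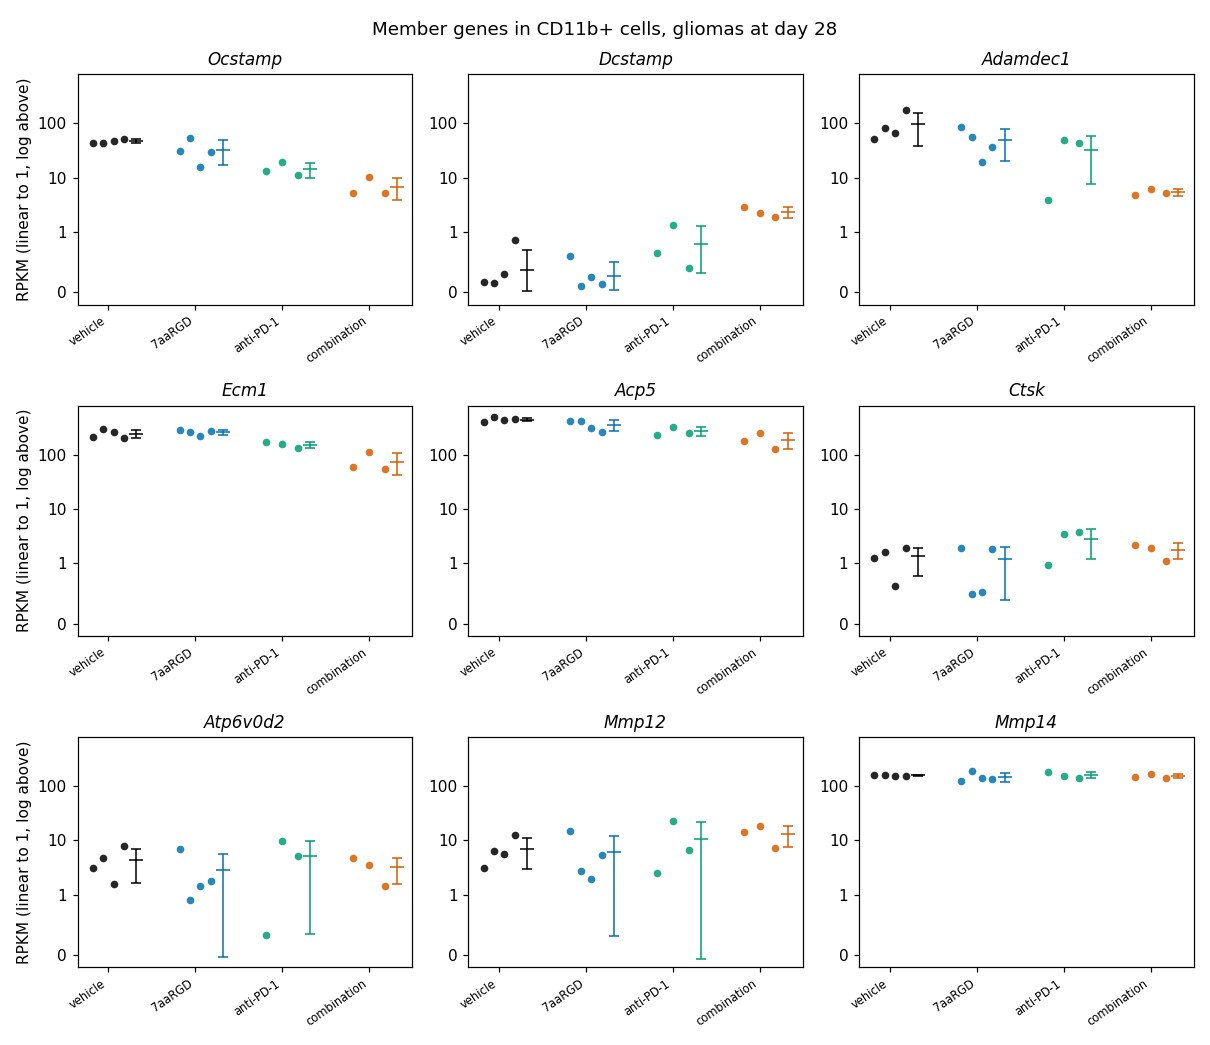
RPKM of the 9 genes in each day 28 sample (points) with the group mean and SD (bar beside the points), on an axis that is linear up to 1 RPKM and logarithmic above. Ocstamp, Ecm1 and Acp5 step down from vehicle to anti-PD-1 to combination, Dcstamp is highest in the combination samples, and the Mmp14 group means lie between 147.1 and 158.9 RPKM.

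Adamdec1, Mmp12 and Mmp14 belong to the metzincins, proteases that hold a zinc ion with 3 histidines in a conserved motif. In ADAMDEC1, a secreted member of the ADAM family, an aspartate is known to replace the last of these histidines. The coding windows of the motif are shown because they set Adamdec1 apart from Mmp12 and Mmp14, with the 3 codons at the positions of the zinc ligands in capitals (GENCODE vM21 transcripts, GRCm38).
Adamdec1 (chr14:68570127-68570159, minus strand, exon 11 of 14): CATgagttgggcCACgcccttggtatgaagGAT
Mmp12 (chr9:7352914-7352946, plus strand, exon 5 of 10): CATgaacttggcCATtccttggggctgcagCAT
Mmp14 (chr14:54437627-54437659, plus strand, exon 5 of 10): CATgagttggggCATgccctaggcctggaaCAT
The last codon in capitals is GAT in Adamdec1 and CAT in Mmp12 and Mmp14.

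Adamdec1 ranged from 3.89 to 179 RPKM at day 28. It was 52.3, 83.2, 66.8 and 179 RPKM with vehicle and 87.1, 56.3, 19.1 and 36.02 RPKM with 7aaRGD. With anti-PD-1 it was 3.89, 49.1 and 44.2 RPKM, and with the combination 4.71, 6.28 and 5.16 RPKM. The anti-PD-1 samples held 1 low sample, below all combination samples, and 2 samples just under the lowest vehicle sample. The difference between anti-PD-1 and vehicle was -1.95 (SE 0.71) and did not pass the test (limma adjusted p = 0.0625). It was -0.85 (adjusted p = 0.272) without anti-PD-1 sample 1, and was called without anti-PD-1 sample 2 (-2.53, adjusted p = 0.0435) or sample 3 (-2.46, adjusted p = 0.0425). As with Ocstamp, the vehicle samples had served the choice of Adamdec1, so these p-values are not independent of it. As a description, the combination differed from vehicle by -3.76 (SE 0.71), from anti-PD-1 by -1.81 (SE 0.76) and from 7aaRGD by -2.79 (SE 0.71). The 7aaRGD group alone overlapped with vehicle (-0.97, SE 0.66, adjusted p = 0.511). At day 21 in GL261 Adamdec1 was 7.01, 9.81 and 2.34 RPKM with vehicle, 5.13, 7.24 and 6.09 RPKM with 7aaRGD and 5.05, 12.4 and 5.49 RPKM with 7aaRAE, with overlapping groups.

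Mmp12, macrophage elastase, was 3.15, 6.27, 5.71 and 12.6 RPKM with vehicle and 14.8, 2.72, 1.962 and 5.39 RPKM with 7aaRGD at day 28. It was 2.45, 22.8 and 6.75 RPKM with anti-PD-1 and 14.003, 18.05 and 7.28 RPKM with the combination. All groups overlapped with vehicle, and anti-PD-1 did not pass the test against it (0.25, SE 0.65, adjusted p = 0.816). As a description, the combination differed from vehicle by 0.88 (SE 0.65), opposite in sign to Adamdec1. Mmp14 had group means of 147.1 to 158.9 RPKM at day 28. Its vehicle samples were 158, 156, 155 and 154 RPKM and its 7aaRGD samples 125, 189.7, 142 and 131 RPKM. The anti-PD-1 samples were 182, 155 and 140.4 RPKM and the combination samples 145, 164 and 141 RPKM. The vehicle samples lay inside the range of each treated group, and anti-PD-1 did not pass the test (0.02, SE 0.13, adjusted p = 0.927). In GL261 at day 21 Mmp14 was 136 to 164 RPKM over the 9 tumor samples, and Mmp12 was 2.27 to 10.1 RPKM.

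Ecm1 was the second most abundant of the 9 genes in the day 28 vehicle group. It was 213, 289.9, 266 and 199 RPKM with vehicle and 283, 259, 217 and 269 RPKM with 7aaRGD. It was 169, 158 and 131 RPKM with anti-PD-1 and 58.7, 109.9 and 53.5 RPKM with the combination. The groups were ordered without overlap from vehicle to anti-PD-1 to combination, while 7aaRGD overlapped with vehicle (0.10, SE 0.19, adjusted p = 0.848). The difference between anti-PD-1 and vehicle was -0.65 (SE 0.21, limma adjusted p = 0.0395). That call was lost when any 1 of 6 of the 7 samples was left out, all but vehicle sample 4 (adjusted p up to 0.130), and with no filter on low values (adjusted p = 0.0718). As with Ocstamp, the vehicle samples had served the choice of Ecm1, so these p-values are not independent of it. As a description, the combination differed from vehicle by -1.75 (SE 0.21), from anti-PD-1 by -1.10 (SE 0.23) and from 7aaRGD by -1.85 (SE 0.21).

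Acp5 had the highest mean of the 9 genes in every day 28 group. It was 399, 482, 437 and 444 RPKM with vehicle and 419, 415, 307 and 261 RPKM with 7aaRGD. It was 233, 323 and 246 RPKM with anti-PD-1 and 179.9, 251 and 129 RPKM with the combination. Anti-PD-1 and combination samples all lay below the vehicle samples, and they overlapped with each other. The difference between anti-PD-1 and vehicle was -0.73 (SE 0.21, limma adjusted p = 0.0234). It did not pass the test without vehicle sample 2 (adjusted p = 0.0572), anti-PD-1 sample 1 (adjusted p = 0.0834) or anti-PD-1 sample 3 (adjusted p = 0.0693). As a description, the combination differed from vehicle by -1.28 (SE 0.21), from anti-PD-1 by -0.55 (SE 0.22) and from 7aaRGD by -0.93 (SE 0.21). In GL261 at day 21 Acp5 was 131 to 194 RPKM with vehicle, 145 to 178 RPKM with 7aaRGD and 136 to 159.6 RPKM with 7aaRAE.

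Sequence upstream of the start was at hand for 5 of the 9 genes (RefSeq, GRCm38.p6), and is shown for the 2 that were called lower with anti-PD-1, Ecm1 and Acp5, beside Mmp12 and Mmp14, which were not. Each line holds the 250 bases before a transcription start, 5′ to 3′ on the strand of the gene, and capitals mark matches on either strand to TGANTCA (AP-1), TCATGTG (MITF) and GAGGAA (PU.1). These motifs occur in 6.75%, 3.25% and 23.3% of 32851 windows of this length.
Ecm1 (chr3:95739570-95739819, minus strand): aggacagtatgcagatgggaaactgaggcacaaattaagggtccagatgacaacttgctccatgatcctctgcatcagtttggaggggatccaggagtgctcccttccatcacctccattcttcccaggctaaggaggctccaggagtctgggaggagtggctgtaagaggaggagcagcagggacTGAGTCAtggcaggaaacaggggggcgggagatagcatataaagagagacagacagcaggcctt
Acp5 (chr9:22130599-22130848, minus strand): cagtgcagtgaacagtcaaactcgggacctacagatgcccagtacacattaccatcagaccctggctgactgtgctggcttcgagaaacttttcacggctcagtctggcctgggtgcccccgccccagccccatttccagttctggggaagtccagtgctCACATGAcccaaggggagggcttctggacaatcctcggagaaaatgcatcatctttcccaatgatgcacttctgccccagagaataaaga
Mmp12 (chr9:7347124-7347373, plus strand): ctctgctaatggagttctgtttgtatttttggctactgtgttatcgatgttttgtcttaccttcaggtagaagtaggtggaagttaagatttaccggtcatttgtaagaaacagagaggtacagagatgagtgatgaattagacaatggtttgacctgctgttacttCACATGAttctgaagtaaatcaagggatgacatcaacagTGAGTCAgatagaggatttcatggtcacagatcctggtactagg
Mmp14 (chr14:54431348-54431597, plus strand): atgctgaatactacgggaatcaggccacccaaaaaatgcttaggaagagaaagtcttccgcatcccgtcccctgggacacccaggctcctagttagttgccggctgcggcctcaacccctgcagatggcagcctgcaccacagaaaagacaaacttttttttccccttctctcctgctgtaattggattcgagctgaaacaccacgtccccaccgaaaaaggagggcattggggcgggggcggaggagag
Ecm1 has an AP-1 match that begins 64 bases before the start. Of the 3 starts of Acp5 only the one shown has a match, to the MITF motif, beginning 90 bases before the start. The Mmp12 start shown, the second of 2, has a MITF match at 83 bases and an AP-1 match at 44 bases, and the Mmp14 window has no match. In windows not printed, the first start of Mmp12 has a PU.1 match at 86 bases and Ctsk, which was not called lower either, has PU.1 matches at 233 and 58 bases. A match is a stretch of letters and not evidence that the factor binds. Ocstamp, Dcstamp, Adamdec1 and Atp6v0d2 had no entry.

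Ctsk and Atp6v0d2, which encode the collagen-degrading protease cathepsin K and a subunit of the proton pump of osteoclasts, were under 10 RPKM in all day 28 samples. Ctsk lies 224784 bases from Ecm1 on chr3 of GRCm38. Ctsk was 1.25, 1.65, 0.618 and 1.93 RPKM with vehicle at day 28 and 1.91, 0.487, 0.524 and 1.83 RPKM with 7aaRGD. It was 0.972, 3.47 and 3.80 RPKM with anti-PD-1 and 2.21, 1.93 and 1.12 RPKM with the combination, so that its groups overlapped where those of Ecm1 did not. Atp6v0d2 was 3.07, 4.78, 1.60 and 7.82 RPKM with vehicle and 7.01, 0.916, 1.47 and 1.80 RPKM with 7aaRGD. It was 0.336, 9.72 and 5.07 RPKM with anti-PD-1 and 4.64, 3.46 and 1.43 RPKM with the combination. The samples of all 4 groups overlapped, and neither gene passed the test between anti-PD-1 and vehicle (Ctsk 0.60, SE 0.33, adjusted p = 0.215, Atp6v0d2 -0.12, SE 0.65, adjusted p = 0.915). Without anti-PD-1 sample 1, Ctsk was called higher (1.01, adjusted p = 0.0397).

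In GL261 at day 21 both genes had lower means with either peptide than with vehicle. Ctsk was 18.2, 27.5 and 12.6 RPKM with vehicle, 9.12, 7.12 and 12.5 RPKM with 7aaRGD and 11.6, 5.47 and 20.99 RPKM with 7aaRAE. Atp6v0d2 was 5.59, 6.28 and 0.326 RPKM with vehicle, 0.194, 0.642 and 1.52 RPKM with 7aaRGD and 0.520, 0.379 and 1.25 RPKM with 7aaRAE. The highest 7aaRGD sample of Ctsk lay just under the lowest vehicle sample, and vehicle sample 3 of Atp6v0d2 lay among the peptide samples. Neither gene passed the test with 7aaRGD (Ctsk -0.91, SE 0.41, adjusted p = 0.373, Atp6v0d2 -1.23, SE 0.58, adjusted p = 0.385). Without vehicle sample 3 the Atp6v0d2 difference was -2.02 and was called (adjusted p = 0.0216).

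Treatment was compared with vehicle to ask what integrin blockade, the checkpoint antibody and both together change in the myeloid cells. At day 28, 3 of the 8 members tested were lower with anti-PD-1 (Ocstamp, Ecm1 and Acp5) and 0 were higher, where 12.2% of 9600 genes were called lower and 10.9% higher. In 4 of the 8 (these 3 and Adamdec1) the anti-PD-1 and vehicle samples did not overlap, as in 32.5% of genes. The number called lower was 1 to 3 when single samples were left out. It was 1 (Ocstamp) without vehicle sample 2 and without anti-PD-1 sample 1, where Ctsk was also called higher. Without anti-PD-1 sample 2 it was 3 with Adamdec1 in place of Ecm1, and without anti-PD-1 sample 3 it was 2 (Ocstamp and Adamdec1). The vehicle samples are those of the combination comparison by which genes were chosen, so this is not an independent result. With 7aaRGD alone, 0 of 8 were called at day 28 (limma, 0 at an unadjusted p under 0.05), where 0.792% of genes were called, and no member had groups that did not overlap, against 7.98% of genes. In GL261 at day 21, 0 of 9 were called with 7aaRGD (limma, 1 at an unadjusted p under 0.05, Ecm1), where 0.15% of genes were called, and 2 (Ctsk and Dcstamp) did not overlap with vehicle, against 17.7% of genes. With 7aaRAE, 0 of 9 were called (limma, 1 at an unadjusted p under 0.05, Ecm1), where 0% of genes were called, and 2 (Ecm1 and Dcstamp) did not overlap, against 12.6% of genes.

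Ecm1 was 171, 103 and 129.8 RPKM with vehicle at day 21 in GL261, 80.7, 81.95 and 119 RPKM with 7aaRGD and 86.2, 82.6 and 75.1 RPKM with 7aaRAE. All 7aaRAE samples were below all vehicle samples, and the 7aaRGD samples overlapped with vehicle. Its differences from vehicle did not pass the test with 7aaRGD (-0.51, SE 0.19, adjusted p = 0.297) or with 7aaRAE (-0.69, SE 0.19, adjusted p = 0.713), and the test between the 2 peptides was not passed either (0.18, SE 0.19, adjusted p = 0.992). Between 7aaRGD and 7aaRAE, 0 of 9 members were called (limma, 0 at an unadjusted p under 0.05), and 0% of genes, and 1 (Mmp14) did not overlap, against 11.4% of genes.

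In the comparisons that chose the genes, 4 of 8 members were past the threshold and lower in the combination than in vehicle (Ocstamp, Ecm1, Acp5 and Adamdec1), where 25.7% of genes were called lower and 17.5% higher, and the groups of these 4 did not overlap, against 48.7% of genes. The same 4 were lower than in 7aaRGD, where 36.4% of genes were called, 23.5% lower and 12.9% higher, and again 4 did not overlap, against 40.3% of genes. Against anti-PD-1 none of the 8 was past the threshold, where 0.0417% of genes were called, and 2 (Ocstamp and Ecm1) did not overlap, against 21.4% of genes. These counts repeat the choice of the genes and are no result about them. Under median-of-ratios scaling the genes called between combination and vehicle split into 2149 higher and 2070 lower instead of 1682 and 2466, and those between combination and 7aaRGD into 1670 and 1597 instead of 1240 and 2259.

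**Figure D3:**
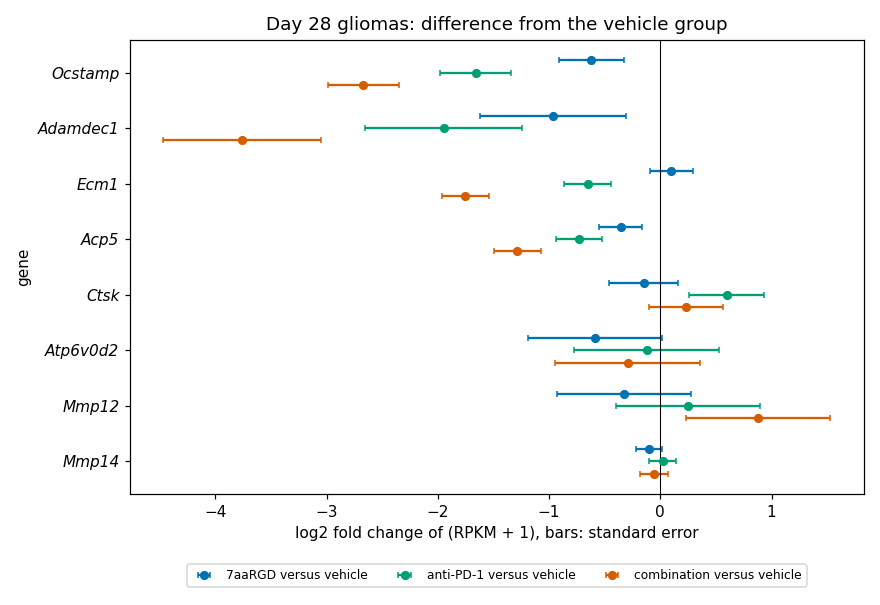
Log2 fold change of RPKM + 1 from the vehicle group (points) with its SE (bars) for 8 genes and the 3 treated groups of day 28, with Dcstamp left out by its low level. Ocstamp, Adamdec1, Ecm1 and Acp5 lie left of 0 with anti-PD-1 and with the combination, and Mmp14 lies close to 0 with all 3 treatments.

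Markers of other cell types moved with these groups. Summed markers of dendritic cells were 1.90 to 3.97 RPKM in vehicle, 4.45 to 18.4 RPKM in anti-PD-1 and 14.1 to 17.5 RPKM in combination samples. Of 7 markers of dendritic cells 2 were tested and both rose with anti-PD-1, while Xcr1 was under 0.1 RPKM in every vehicle and anti-PD-1 sample. Summed NK cell markers were 2.16 to 11.1 RPKM in vehicle, 2.57 to 67.9 RPKM in anti-PD-1 and 25.02 to 79.1 RPKM in combination samples, and of 5 tested 0 passed with anti-PD-1 and 4 rose with the combination. Of 8 markers of monocyte-derived macrophages 4 rose and 0 fell with anti-PD-1, and 4 rose and 0 fell with the combination. Their sums were 1555 to 2171 RPKM in vehicle, 1871 to 2267 RPKM in anti-PD-1 and 1686 to 2239 RPKM in combination samples. Of 5 general markers of the sorted myeloid cells 1 rose with anti-PD-1 and 3 with the combination. Of 8 microglia markers 1 rose with 7aaRGD alone, 1 with anti-PD-1 and 5 with the combination. Markers of border-associated macrophages summed to 164 to 210.5 RPKM in vehicle and 167 to 182 RPKM in anti-PD-1 samples, and to 93.02, 201 and 94.6 RPKM in combination samples 1, 2 and 3. Both tested endothelial markers rose with anti-PD-1 and with the combination, and the 4 markers summed to 2.93 to 5.77 RPKM in vehicle, 5.58 to 12.5 RPKM in anti-PD-1 and 8.22 to 13.5 RPKM in combination samples. Of 5 tested myelin and oligodendrocyte markers 2 rose and 1 fell with either treatment. With the combination 2 of 5 proliferation markers, 1 of 5 tested neutrophil markers and 1 of 5 tested border-associated macrophage markers fell, and with anti-PD-1 none of these passed. Tested directly between the combination and anti-PD-1, no marker of any list was called. The counts against vehicle therefore do not show that these treatments differed in the markers. Combination sample 2 was also the highest of its group in Ocstamp, Ecm1, Acp5 and Adamdec1. The part of these cells in the differences was not tested.

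The spread within groups tied another set of members together. At day 28, vehicle sample 4 was the highest of its group in Adamdec1, Atp6v0d2, Mmp12 and Ctsk, 7aaRGD sample 1 was the highest of its group in the same 4 genes, and anti-PD-1 sample 1 the lowest of its group. With group means removed, log2(RPKM + 1) over the 14 samples had a Pearson's r of 0.89 for Ctsk and Atp6v0d2, 0.88 for Atp6v0d2 and Mmp12, 0.81 for Adamdec1 and Atp6v0d2, 0.80 for Adamdec1 and Mmp12, 0.77 for Ctsk and Mmp12 and 0.74 for Adamdec1 and Ctsk. Dcstamp, left out of the test by its low mean, had an r of 0.74 with Mmp12 and 0.64 with Atp6v0d2. Its r was 0.42 with Adamdec1 and 0.38 with Ctsk. Adamdec1 and Ecm1 had an r of -0.04 on the same measure, against 0.73 with the group means kept. For Ecm1, Ocstamp and Acp5, r with group means removed was 0.63 for Ecm1 and Acp5, 0.66 for Ocstamp and Acp5 and 0.54 for Ecm1 and Ocstamp. The points share libraries and lack 1 dimension, and these values are descriptions. In the 9 GL261 tumor samples of day 21, r was 0.81 for Adamdec1 and Mmp12, 0.65 for Adamdec1 and Atp6v0d2 and 0.64 for Ctsk and Atp6v0d2, but 0.27 for Atp6v0d2 and Mmp12, -0.05 for Adamdec1 and Ctsk and -0.50 for Ctsk and Mmp12. In the same samples r was 0.45 for Ecm1 and Acp5, -0.47 for Ocstamp and Acp5 and 0.16 for Ecm1 and Ocstamp. For Dcstamp it was 0.83 with Mmp12, 0.49 with Adamdec1, -0.21 with Atp6v0d2 and -0.78 with Ctsk. Border-associated macrophage markers summed to 210.5 RPKM in vehicle sample 4 and 298 RPKM in 7aaRGD sample 1, the highest of their groups, and to 182, 167 and 182 RPKM in the anti-PD-1 samples. Their part was not tested.

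**Figure D4:**
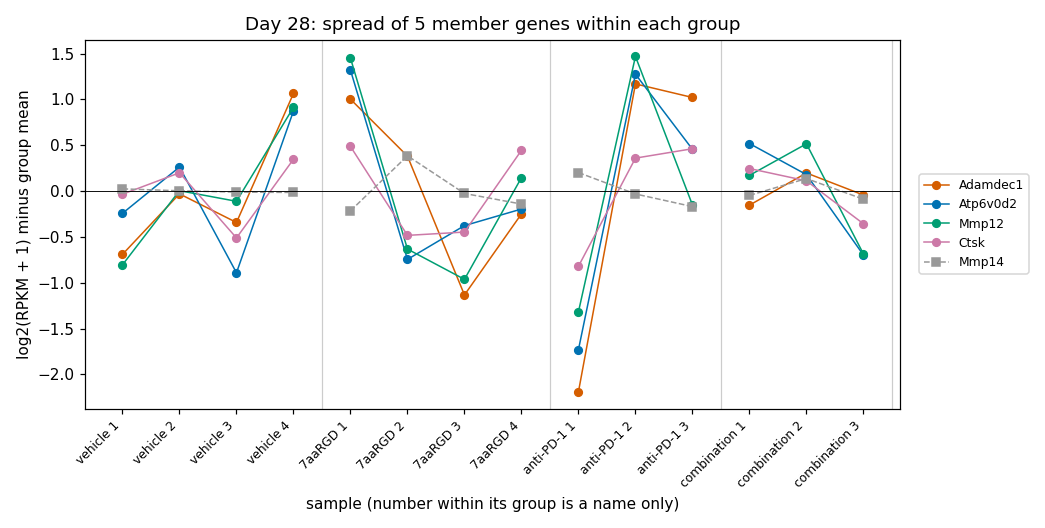
Deviation of log2(RPKM + 1) from its group mean for 5 genes in the 14 day 28 samples, with lines joining the samples of a group for legibility only. Adamdec1, Atp6v0d2, Mmp12 and Ctsk deviate together, all 4 being lowest of their group in anti-PD-1 sample 1, and Mmp14 does not follow them.

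Genes with the pattern most like Adamdec1 over the 14 day 28 samples, by Pearson's r of log2(RPKM + 1) among 9599 other genes, were Slc25a5 (r = 0.965), a mitochondrial ADP/ATP carrier, Ahr (r = 0.958), the aryl hydrocarbon receptor, and Stra6l (r = 0.947). Ahr averaged 10.3 RPKM with vehicle, 7.76 RPKM with 7aaRGD, 6.46 RPKM with anti-PD-1 and 4.62 RPKM with the combination. Those most like Ecm1 were Slc25a39 (r = 0.958), Pabpc4 (r = 0.953) and Tcp1 (r = 0.951), and those most like Ocstamp were Serbp1 (r = 0.986), Mri1 (r = 0.977) and Ap1s1 (r = 0.976). These correlations carry the differences between groups, and the points share libraries. With group means removed, r was 0.85 to 0.91 for the genes named with Adamdec1. It was 0.70 to 0.78 for those named with Ecm1 and 0.88 to 0.93 for those named with Ocstamp. The genes were picked for their likeness, so these values are descriptions.

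Other genes of the pathway were counted from 7 lists of 104 genes, of which 83 were tested at day 28. With anti-PD-1, 17 rose and 7 fell (28.9% against 23.1% of all genes called). In osteoclast signalling and transcription 8 rose, 2 fell and 11 did not pass, with a median difference of 0.0818 against -0.00505 over all genes. Nfkb2 (17.03 to 31.001 RPKM, 0.80, SE 0.13, adjusted p = 0.000988) and Relb (10.5 to 17.6 RPKM, 0.67, SE 0.16, adjusted p = 0.0112), partners in the noncanonical NF-kB pathway downstream of RANK, rose most in this list. Tnfrsf11a itself fell (18.6 to 15.02 RPKM, -0.30, SE 0.07, adjusted p = 0.0123), as did Nfatc1, the main transcription factor of osteoclasts (19.3 to 16.6 RPKM, -0.20, SE 0.06, adjusted p = 0.0270). With the combination Tnfrsf11a fell against vehicle to 11.7 RPKM (-0.64, adjusted p = 2.89e-05).

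Among 13 genes of macrophage fusion, the surface protease Adam8 (26.5 to 51.6 RPKM, 0.95, SE 0.29, adjusted p = 0.0330) and the hyaluronan receptor Cd44 (28.7 to 41.4 RPKM, 0.53, SE 0.13, adjusted p = 0.0100) rose with anti-PD-1 and 11 did not pass, with a median of 0.0474. Of 15 genes of acid secretion 1 fell, Ostm1, a partner of the chloride transporter ClC-7 (15.5 to 12.5 RPKM, -0.29, SE 0.10, adjusted p = 0.0462), and 14 did not pass (median -0.0452). Of 12 cathepsins, legumain and cystatins 2 rose and 3 fell (median 0.0074), with the proteases Ctsl (136 to 95.3 RPKM, -0.51, SE 0.13, adjusted p = 0.0153) and Lgmn (1987 to 1461 RPKM, -0.46, SE 0.12, adjusted p = 0.0183) among those that fell. Of 8 tested metalloproteinases and inhibitors 2 rose, the inhibitor Timp1 (1.33 to 4.52 RPKM, 1.20, SE 0.38, adjusted p = 0.0373) and the membrane-anchored Mmp25 (3.24 to 7.06 RPKM, 0.90, SE 0.22, adjusted p = 0.0106), and the median was 0.0747. Of 4 tested ADAM genes 2 rose, the sheddase Adam17 (28.4 to 43.6 RPKM, 0.60, SE 0.09, adjusted p = 0.000669) and Adam15 (35.7 to 45.7 RPKM, 0.35, SE 0.09, adjusted p = 0.0154). Of 10 matrix genes 1 rose, versican (Vcan, 0.393 to 2.48 RPKM, 1.21, SE 0.28, adjusted p = 0.00781), and 1 fell, the basement membrane collagen Col4a1 (3.33 to 1.14 RPKM, -1.02, SE 0.16, adjusted p = 0.000836), with a median of -0.379. Vcan, with a vehicle mean under 1 RPKM, could hardly have been called lower.

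With the combination, 23 of the 83 list genes rose and 17 fell against vehicle (48.2% against 43.2% of all genes called). In the signalling list 9 rose, 4 fell and 8 did not pass, with Nfkb2 at 39.3 RPKM (1.16, adjusted p = 1.84e-05) and Relb at 22.4 RPKM (1.02, adjusted p = 0.000306). Of the fusion list 3 rose and 0 fell, and of the acid secretion list 2 rose and 4 fell. Of the cathepsin list 4 rose and 4 fell. Of 8 tested metalloproteinases and inhibitors 2 rose and 0 fell, Mmp25 (3.24 to 8.51 RPKM, 1.15, SE 0.22, adjusted p = 0.00104) and Timp1 (1.33 to 5.31 RPKM, 1.21, SE 0.38, adjusted p = 0.0211). Of 4 tested ADAM genes 2 rose, Adam17 and Adam15, and 1 fell, Adam19 (6.45 to 3.29 RPKM, -0.79, SE 0.29, adjusted p = 0.0438). Of the matrix list 1 rose and 4 fell, among them Col4a1 (3.33 to 0.409 RPKM, -1.62, SE 0.16, adjusted p = 7.21e-06) and Gpnmb, a glycoprotein of osteoclasts and macrophages (161 to 93.05 RPKM, -0.77, SE 0.24, adjusted p = 0.0182). Between the combination and 7aaRGD, 18 of the 83 were higher and 12 lower in the combination (36.1% against 36.4% of all genes called). Between the combination and anti-PD-1, 0 of the 83 were called, against 0.0417% of all genes. The counts against vehicle therefore do not show that the combination and anti-PD-1 differed in these lists. With 7aaRGD alone, 0 of the 83 passed at day 28, and 0 of 81 did in GL261 at day 21 with either peptide.

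Levels in U87-MG gliomas of nude mice were not tested against those in GL261. Ecm1 was 17.7, 15.1 and 33.95 RPKM with vehicle, 17.2, 80.1 and 19.8 RPKM with 7aaRGD and 18.5, 100.0 and 36.7 RPKM with 7aaRAE. Acp5 was 19.6, 10.2 and 17.2 RPKM with vehicle, 8.26, 39.6 and 11.8 RPKM with 7aaRGD and 9.19, 16.8 and 12.8 RPKM with 7aaRAE. Mmp14 was 34.2, 26.8 and 32.8 RPKM with vehicle, 20.9, 55.998 and 36.3 RPKM with 7aaRGD and 28.2, 36.2 and 33.8 RPKM with 7aaRAE. The same sample was the highest of its group in all 3 genes with 7aaRGD, and another likewise with 7aaRAE, and all groups overlapped. In each of the 3 comparisons 0 of these 3 genes were called (limma, 0 at an unadjusted p under 0.05), where at most 0.0105% of genes were called. For Ecm1 with 7aaRGD the difference was 0.51 (SE 0.69, limma adjusted p = 0.938). The other 6 members ranged from 0.0083 RPKM (Adamdec1) to 1.27 RPKM (Ctsk) and were not tested. Summed microglia markers were 6498 to 10563 RPKM and those of monocyte-derived macrophages 209.7 to 481 RPKM in these samples, and their part in the levels was not tested. Border-associated macrophage markers summed to 202 RPKM in the 7aaRGD sample with the highest Ecm1 and to 53.4 and 86.1 RPKM in the other 2. They summed to 103 RPKM in the 7aaRAE sample with the highest Ecm1, within the range of 92.3 to 119 RPKM in vehicle samples.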

How the data were processed

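CD11b+ cells were profiled by stranded polyA RNA-seq. The study used Trimmomatic for trimming, STAR with mm10 for alignment and HTSeq-count 0.11.1 with reverse strand for counting, and duplicates were flagged. The authors deposited RPKM to which 2 had been added, and this constant was removed here. Negative results (3.133% to 8.783% of rows per sample, down to -0.422) were set to 0. Plain RPKM cannot be negative, so a further step of unknown kind had been applied before deposit. Neither counts nor depth could be recovered, so precision from depth is unknown. Of 54513 rows, 89.922% had a symbol in GENCODE vM21 or RefSeq.

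Genes coding for protein were tested on log2(RPKM + 1) if they averaged 1 RPKM or more, by limma 3.58.1 in R 4.3.3 (lmFit, eBayes with trend), two-sided, with Benjamini-Hochberg adjustment and a threshold of 0.05. This scale understates changes of low genes. Tumor groups of a table shared a fit, and naive was fitted with vehicle alone, without a replicate block. p-values measure the spread between samples. Alternatives varied the pseudocount, filter, scaling, groups fitted, block, negative values and degrees of freedom, and left out each sample. The test was checked on simulated data, and Python 3.11.15 made the summaries.

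The 9 genes and the lists were chosen with earlier results of these data known. Per list, up to 2 risers and 2 fallers with the greatest change beyond the threshold were named, together with the 3 genes most similar in pattern to each of Adamdec1, Ecm1 and Ocstamp. Sample columns left unused numbered 0.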

Additional observations from a re-analysis of the deposited data

Results flagged for a closer look

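Atp6v0d2 with 7aaRGD at day 28 had 1 sample far above the others. Sample 1 was 7.01 RPKM and the other 3 were 0.916 to 1.80 RPKM, and the gap to the nearest sample was 0.854 of the range of the group, above the critical value of Dixon's test for 4 samples at 95%. Chance sets off this rule in about 1 of 20 groups. Without that sample the difference of Atp6v0d2 from vehicle was -1.02 (limma adjusted p = 0.480) instead of -0.58.

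The Ocstamp mean with 7aaRGD was below that of vehicle in GL261 and above it in U87-MG at day 21, by a margin that 1 sample turned in GL261. The ratio of the 7aaRGD mean to the vehicle mean was 0.838 in GL261 and 2.19 in U87-MG, every 7aaRGD sample being below the vehicle mean in GL261 and above it in U87-MG. The difference between the models was not tested. In GL261 the 7aaRGD samples (12.7 to 14.05 RPKM) lay inside the range of the vehicle samples (11.6 to 22.8 RPKM), and the log2 fold change of -0.18 (SE 0.37, limma adjusted p = 0.865) turned to 0.09 without vehicle sample 3. The U87-MG levels were 0.175, 0.290 and 0.188 RPKM with vehicle and 0.391, 0.350 and 0.687 RPKM with 7aaRGD, all under 1 RPKM.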

How the results depend on the processing

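Over the 9 genes there were 1335 log2 fold changes, each of a single gene in a single comparison and setting. Of these, 84 were as reported, 1177 had the same direction and call, 6 were called only in the alternative, 11 lost a call and 57 had the opposite sign. The tally includes the comparisons that hold the combination group, which are tied to the choice of genes. It is therefore no support for those differences. The cause of the changes was not tested. The samples number 3 or 4 in a group and read depth is unknown, so differences under the spread between samples were not detectable. One alternative, with 1 residual degree of freedom less, was chosen after seeing the data, and under it Ecm1 lost its call with anti-PD-1 (adjusted p = 0.0551).

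With a mean of at least 5 RPKM, 5 members were tested and called between vehicle and naive instead of 8, and 5239 genes instead of 7957. Of genes called between 7aaRGD and vehicle in GL261 at day 21 (14), 0 remained in number with a pseudocount of 0.1, with a mean of at least 5 RPKM, with the replicate block or with 1 degree of freedom less, 51 were called with no filter on low values, 9 with median-of-ratios scaling and 1 with only the 2 groups compared. Between 7aaRGD and 7aaRAE (0), 7 were called with no filter and 6 with only the 2 groups. At day 28 between 7aaRGD and vehicle (76), 44 were called with no filter, 47 with median-of-ratios scaling, and 0 with only the 2 groups, with the replicate block or with 1 degree of freedom less. Between combination and anti-PD-1 (4), 2 were called with a pseudocount of 0.1, 14 with a pseudocount of 5, 19 with no filter, 13 with a mean of at least 5 RPKM, 1 with 1 degree of freedom less, and 0 with only the 2 groups or with the replicate block. In U87-MG between 7aaRAE and vehicle (1), 0 were called with a mean of at least 5 RPKM and 31 with only the 2 groups.

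The sign of some differences close to 0 turned. For 7aaRGD against 7aaRAE in GL261, Atp6v0d2 was -0.0601 and Mmp12 0.0229 with a pseudocount of 0.1, and Dcstamp was -0.0158 with a pseudocount of 5 and -0.0127 with median-of-ratios scaling. Atp6v0d2 was 0.0329 with anti-PD-1 against vehicle with a pseudocount of 5, and 0.0729 for the combination against anti-PD-1 with a pseudocount of 0.1. Mmp14 was -0.00595 with anti-PD-1 against vehicle with the replicate block.

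When single samples were left out, the members called numbered 0 to 1 for 7aaRGD against vehicle in GL261 (Atp6v0d2, without vehicle sample 3), 1 to 3 for anti-PD-1 against vehicle and 0 to 1 for the combination against anti-PD-1. Genes called numbered 0 to 124 for 7aaRGD against vehicle, 0 to 2 for 7aaRAE against vehicle and 0 to 1 for 7aaRGD against 7aaRAE in GL261. At day 28 they numbered 0 to 28 for 7aaRGD against vehicle, 1336 to 2231 for anti-PD-1 against vehicle and 0 to 26 for the combination against anti-PD-1, and in U87-MG 0 to 2 for 7aaRGD against 7aaRAE. Log2 fold changes of members that took both signs are given next. For 7aaRGD against vehicle in GL261 at day 21 the range was -0.373 to 0.0863 for Ocstamp, -0.238 to 0.0421 for Acp5, -0.39 to 0.458 for Adamdec1 and -0.198 to 0.217 for Mmp12. For 7aaRAE against vehicle in GL261 at day 21 the range was -0.485 to 0.348 for Ocstamp, -0.205 to 0.643 for Adamdec1 and -0.451 to 0.43 for Mmp12. For 7aaRGD against 7aaRAE in GL261 at day 21 the range was -0.532 to 0.302 for Ocstamp, -0.685 to 0.197 for Ctsk, -0.26 to 0.279 for Atp6v0d2, -0.0472 to 0.103 for Acp5, -0.393 to 0.18 for Adamdec1, -0.378 to 0.504 for Mmp12 and -0.158 to 0.314 for Dcstamp. For 7aaRGD against vehicle at day 28 the range was -0.32 to 0.0113 for Ctsk. For anti-PD-1 against vehicle at day 28 the range was -0.759 to 0.743 for Atp6v0d2, -0.0805 to 0.105 for Mmp14 and -0.487 to 0.906 for Mmp12. For the combination against vehicle the range was -0.589 to 0.057 for Atp6v0d2. For the combination against anti-PD-1 the range was -1.04 to 0.467 for Atp6v0d2, -0.163 to 0.0219 for Mmp14 and -0.0267 to 1.37 for Mmp12. For the combination against 7aaRGD the range was -0.0289 to 0.171 for Mmp14. For 7aaRGD against vehicle in U87-MG the range was -0.172 to 0.905 for Ecm1, -0.167 to 0.522 for Mmp14 and -0.568 to 0.499 for Acp5. For 7aaRAE against vehicle in U87-MG the range was -0.0417 to 0.163 for Mmp14. For 7aaRGD against 7aaRAE in U87-MG the range was -1.11 to 0.208 for Ecm1, -0.229 to 0.46 for Mmp14 and -0.318 to 0.749 for Acp5.

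Whether sample numbers pair the samples could not be decided. In GL261 at day 21, 1 of 18 same-numbered pairs had a correlation of deviations over 0.1, and at day 28, 3 of 19 had. The lowest correlations were -0.773 at day 21 and -0.500 at day 28. Because the replicate differences lack 1 dimension in both tables, low correlations do not show that the samples were unpaired. The replicate block changed no call of a member. No paired analysis was possible in U87-MG because the columns carry no sample numbers.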

Other observations

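The same lists were counted between GL261 vehicle and naive samples at day 21, where 46 of the 83 tested genes rose, 33 fell and 4 did not pass (95.2% against 82.9% of all genes called). Of all genes tested, 34.6% were called higher and 48.3% lower. In macrophage fusion 7 rose and 6 fell, with Lgals3, a galectin (6.93 to 468 RPKM, 5.89, SE 0.08, adjusted p = 2.84e-09), and Adam8 (0.607 to 38.02 RPKM, 4.56, SE 0.20, adjusted p = 2.32e-07) rising most, and the integrin subunit Itgb3 (27.1 to 2.98 RPKM, -2.84, SE 0.15, adjusted p = 6.28e-07) and the tetraspanin Cd81 (660.1 to 127 RPKM, -2.38, SE 0.11, adjusted p = 3.83e-07) falling most. In acid secretion 11 rose and 3 fell, with Clcn7, the ClC-7 chloride transporter (25.1 to 71.6 RPKM, 1.46, SE 0.12, adjusted p = 7.79e-06), and Atp6v1a, a catalytic proton pump subunit (15.8 to 42.4 RPKM, 1.37, SE 0.06, adjusted p = 1.74e-07), rising most. In signalling and transcription 9 rose and 9 fell, with Fos rising (224 to 944 RPKM, 2.06, SE 0.13, adjusted p = 1.70e-06) and the receptors Trem2 (252 to 61.7 RPKM, -2.03, SE 0.13, adjusted p = 1.72e-06) and Csf1r (3046 to 786 RPKM, -1.95, SE 0.07, adjusted p = 8.69e-08) falling.

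Among matrix genes 6 rose and 3 fell, with Gpnmb (0.0808 to 105 RPKM, 6.61, SE 0.08, adjusted p = 2.60e-09) and Tgfbi (35.3 to 1805 RPKM, 5.63, SE 0.08, adjusted p = 3.17e-09) rising most and Sparc (1266 to 119.6 RPKM, -3.42, SE 0.16, adjusted p = 3.46e-07) falling most. Of 9 tested metalloproteinases and inhibitors 5 rose and 4 fell, with Timp1 (0.0207 to 22.3 RPKM, 4.51, SE 0.07, adjusted p = 4.21e-09) rising most and Mmp15 (3.17 to 0.351 RPKM, -1.64, SE 0.13, adjusted p = 7.37e-06) falling most. Of 4 tested ADAM genes 1 rose, Adam19 (0.454 to 3.44 RPKM, 1.61, SE 0.07, adjusted p = 2.86e-07), and 3 fell, with Adam15 (86.4 to 32.2 RPKM, -1.40, SE 0.08, adjusted p = 1.06e-06) falling most. Of the cathepsin list 7 rose and 5 fell, the inhibitor Cstb (40.8 to 475 RPKM, 3.51, SE 0.06, adjusted p = 6.36e-09) rising and Cst3 (13936 to 1753 RPKM, -3.00, SE 0.13, adjusted p = 2.40e-07) falling most. Adjusted p-values are from limma. Some listed genes, among them Gpnmb, Timp1, Adam8 and Adam19, had naive means under 1 RPKM and passed the filter on low values only through the vehicle group. They could hardly have been called lower. Mmp15, with a vehicle mean under 1 RPKM, could hardly have been called higher. Nothing is read from how many listed genes rose or fell. Microglia markers fell and markers of monocyte-derived macrophages rose in the same comparison, and their part in these counts was not tested.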
